A study of Mus musculus with 20 samples.

Results

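The mouse hippocampus libraries of this series differ in their levels of 3 RNAs that mark granule cells of the dentate gyrus, and the libraries with the highest levels were compared here with those with the lowest. Each library was given a score, the mean of log2(CPM + 1) of Prox1, C1ql2 and Dsp, where CPM is counts per 1000000 counts of the library. The 5 libraries of each of the 4 groups were ranked by this score, the first 2 of each group were called rich, and the last 2 were called poor. This gave 8 rich and 8 poor libraries, 16 of the 20 in the series, and left 4 libraries of middle rank in neither class. The classes were therefore chosen by measured values, and the 3 ranking genes are described but not tested between the classes. A gene that differs between the classes varies across libraries together with the ranking genes, and nothing in the contrast refers to a treatment.

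Each library was made from total RNA of a single frozen hippocampus of an adult male wild-type mouse aged 10 to 12 weeks, so a library stands for a mouse. Control mice carried no tumour and received isotype-matched antibody intraperitoneally. ICI mice carried no tumour and received immune checkpoint inhibitors, namely anti-CTLA-4 at 1 mg per dose in 3 doses a week and anti-PD-1 at 200 µg per dose in 2 doses a week. Melanoma mice carried D4M-3A.UV2 tumours, grown in the skin on both sides of the body from a mouse melanoma line, and received isotype antibody. Melanoma plus ICI mice carried the same tumours and received both inhibitors, which the labels give as 3 weeks of treatment. Tumours were started with 500000 cells per injection, 1 week was allowed for engraftment, and brains were collected 72 hours after dosing ended. The tumours lie outside the brain, and no group carries a modified gene.

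The dentate gyrus is the entry station of the hippocampal circuit: its granule cells receive input from the entorhinal cortex and send mossy fibres to pyramidal cells of field CA3. It is also a site where neurons are born in the adult rodent brain. Prox1 encodes a homeobox transcription factor that specifies and maintains granule cell identity, C1ql2 a secreted synaptic organiser of mossy fibre terminals, and Dsp the junction protein desmoplakin, whose RNA is abundant in granule cells within the hippocampus. In bulk tissue, fewer granule cells and less RNA of these genes per cell cannot be told apart.

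Before the comparison, the score itself is described, since it defines the classes. Over the 20 libraries it ran from 3.63 to 7.37, and its mean was 6.52 in rich and 4.97 in poor libraries. In the control group the score of the second library, the last inside the rich class, was 6.60, that of the middle library 6.44 and that of the fourth, the first inside the poor class, 5.61. In the same order the values were 7.07, 6.38 and 5.93 in ICI, 5.81, 5.67 and 5.53 in melanoma, and 5.55, 5.19 and 5.09 in melanoma plus ICI. The borders were thus narrowest in melanoma, where the middle library lay 0.146 below the rich and 0.131 above the poor class, and in melanoma plus ICI, where it lay 0.0951 above the poor class. Classes are relative to a group: the rich libraries of melanoma plus ICI, at 5.55 and 5.79, lay below the ICI library at 5.93 that was called poor. All 3 ranking genes contributed. Prox1 had between 22.0 and 179 CPM, C1ql2 between 6.84 and 187 CPM and Dsp between 4.46 and 161 CPM over the 20 libraries.

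**Figure D1:**
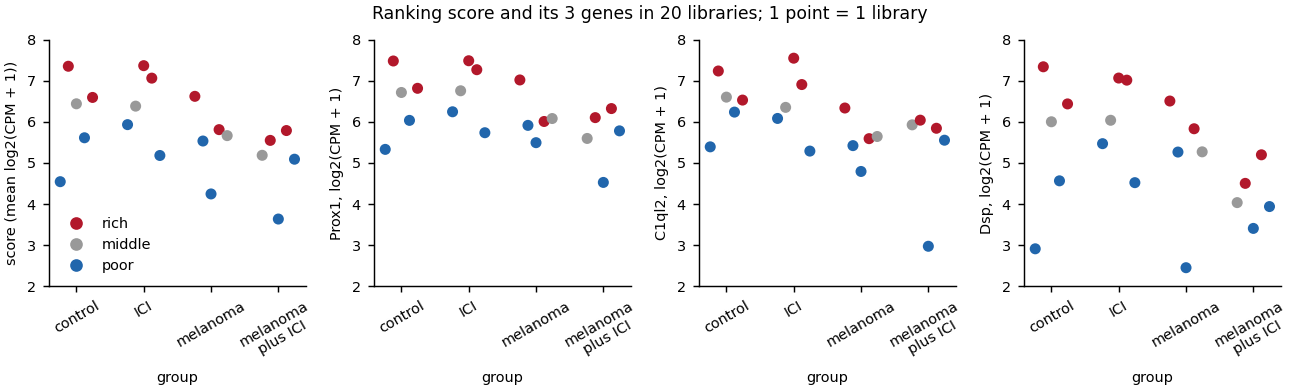
Ranking score and log2(CPM + 1) of Prox1, C1ql2 and Dsp (y axes) by group (x axes), 1 point per library, coloured as rich, middle or poor. The score spans 4.54 to 7.35 within control and 3.63 to 5.79 within melanoma plus ICI, so the classes overlap between groups.

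The score was also compared between the study's groups, which the ranking within groups did not use. It was 6.11 ± 1.07 (SD, n = 5) for control, 6.39 ± 0.878 for ICI, 5.58 ± 0.856 for melanoma and 5.05 ± 0.840 for melanoma plus ICI. The mean was 5.31 in the 10 tumour-bearing and 6.25 in the 10 tumour-free mice, a difference of -0.935. An exact permutation test, two-sided and with labels permuted within inhibitor status, gave p = 0.0359 and an adjusted p of 0.0719 over the 2 contrasts, which missed the threshold of 0.05. Without control replicate 1, ICI replicate 5 or melanoma replicate 1 the adjusted p of this exact permutation test was 0.014, 0.0384 and 0.0376, and over all 20 such omissions it ran up to 0.155. For the inhibitors the difference was -0.124 (exact permutation test, p = 0.765).

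Sequencing depth covered similar ranges in both classes. Rich libraries held between 21990624 and 24391882 counts and poor ones between 22105189 and 25735149, and 24674 to 26194 and 25398 to 26131 genes were detected (exact permutation tests with classes permuted within groups, p = 0.454 and 0.878). Mitochondrially encoded genes held 3.08% to 3.63% of the counts in rich libraries, with a median of 3.28%, and 3.16% to 5.10% in poor ones, with a median of 3.63%. This share was lower in rich libraries by 0.438 percentage points on average over the groups, with p = 0.00154, the smallest that the 1296 relabellings of this exact permutation test allow, and 0.00463 adjusted over 3 measures. Without control replicate 4, the poor library with the highest share, the difference was -0.253 percentage points with an adjusted p of 0.037 by the same exact permutation test.

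Of 17571 genes tested with edgeR's quasi-likelihood test and the group as a covariate, 10 were higher (0.0569% of genes tested) and 1 was lower (0.00569%) in rich libraries at a Benjamini-Hochberg adjusted p under 0.05. At an unadjusted p under 0.05 there were 1311 higher (7.46%) and 1376 lower (7.83%) genes. Values per gene are given below in CPM of the TMM-scaled library size, and differences as log2 fold changes of rich over poor with their standard error (SE). The genes that passed include an axon guidance molecule, a monoamine transporter, regulators of the actin cytoskeleton and a cell surface protein of the immunoglobulin family.

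For 6 of these 11 genes the RefSeq promoter table (GRCm38.p6) holds an entry. The 250 bases before the start are shown for Sema5a, Slc29a4, Prtg and Dock10, the genes of known function described first below, at the start nearest the outer end of the gene where the table holds several. Capitals mark the hexamer CAGATG on either strand, a form of the E-box that basic helix-loop-helix factors such as NeuroD1 can bind. CAGCTG was searched too, does not overlap it, and is not found in these stretches.
Sema5a, chr15:32244563-32244812, plus strand: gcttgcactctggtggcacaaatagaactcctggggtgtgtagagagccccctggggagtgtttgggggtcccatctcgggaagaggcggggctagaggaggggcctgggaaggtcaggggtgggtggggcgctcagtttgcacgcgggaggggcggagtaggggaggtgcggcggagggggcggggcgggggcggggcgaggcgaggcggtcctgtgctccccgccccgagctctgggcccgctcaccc
Slc29a4, chr5:142701851-142702100, plus strand: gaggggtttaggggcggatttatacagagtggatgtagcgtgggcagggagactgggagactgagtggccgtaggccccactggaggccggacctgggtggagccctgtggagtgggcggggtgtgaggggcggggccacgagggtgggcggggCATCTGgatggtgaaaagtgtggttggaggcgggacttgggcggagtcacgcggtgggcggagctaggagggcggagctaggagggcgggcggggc
Prtg, chr9:72807024-72807273, plus strand: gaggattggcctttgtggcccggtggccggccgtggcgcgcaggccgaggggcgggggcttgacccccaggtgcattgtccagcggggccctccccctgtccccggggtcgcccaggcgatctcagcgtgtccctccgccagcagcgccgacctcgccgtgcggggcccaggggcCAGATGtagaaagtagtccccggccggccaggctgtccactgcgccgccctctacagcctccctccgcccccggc
Dock10, chr1:80758554-80758803, minus strand: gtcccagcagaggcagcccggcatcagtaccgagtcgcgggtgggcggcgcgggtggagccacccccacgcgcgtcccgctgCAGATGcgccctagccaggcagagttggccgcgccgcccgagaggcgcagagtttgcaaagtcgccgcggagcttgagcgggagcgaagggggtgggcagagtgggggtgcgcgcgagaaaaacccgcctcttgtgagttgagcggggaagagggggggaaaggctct
The Slc29a4, Prtg and Dock10 stretches hold 1 CAGATG each and the Sema5a stretch holds 0. Over all 32851 promoter stretches of this length 14.4% hold CAGATG and 13% hold CAGCTG, on either strand. The GC content of the 4 stretches is 72%, 68.8%, 75.2% and 70.4% in the order shown. The Slc29a4 and Prtg stretches lie inside the gene as the deposited coordinates place it. Of the other starts used, both of Cald1 and the second of Dock10 hold 1 CAGATG each. The second of Dock10 holds 1 CAGCTG as well, and that of B930018H19Rik holds neither. A match says only that the letters are present.

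Sema5a (chromosome 15, 32244813 to 32696341), a transmembrane semaphorin that guides axons and acts in granule cell synapse formation, had the smallest p-value. Rich libraries were between 80.2 and 209 CPM with a median of 130, and poor ones between 37.9 and 87.8 with a median of 51.8. Within each of the 4 groups both rich libraries lay above both poor ones, and across groups the classes overlapped only through the ICI library at 87.8 CPM that was called poor and the melanoma plus ICI library at 80.2 CPM called rich. The log2 fold change was 1.29 (SE 0.17 and adjusted p 0.0226), and by group it was 1.78 for control, 1.26 for ICI, 1.10 for melanoma and 1.03 for melanoma plus ICI. No gene overlaps Sema5a in the deposited annotation.

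Slc29a4 (chromosome 5, 142692512 to 142722490), which encodes the plasma membrane monoamine transporter, was between 34.9 and 93.5 CPM in rich libraries (median 53.9) and between 15.3 and 35.4 CPM in poor ones (median 20.6). The classes met only at their edges, with the highest poor library, from melanoma plus ICI, just above the lowest rich one, from melanoma. Its log2 fold change was 1.21 (SE 0.20 and adjusted p 0.0443). Prtg (chromosome 9, 72806874 to 72917291), protogenin, an immunoglobulin family protein of the developing nervous system, was between 7.03 and 12.6 CPM in rich libraries (median 8.04) and between 3.73 and 6.79 in poor ones (median 4.57). Here all 8 rich libraries lay above all 8 poor ones, across groups as well. Its log2 fold change was 0.78 (SE 0.12 and adjusted p 0.0264).

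Among the regulators of the cytoskeleton, Dock10 (chromosome 1, 80501073 to 80758527), a guanine nucleotide exchange factor for small GTPases, was between 84.0 and 174 CPM in rich libraries (median 128) and between 56.5 and 92.2 in poor ones (median 74.4). The classes overlapped in melanoma, where a poor library at 92.2 CPM lay above a rich one at 84.4. Its log2 fold change was 0.77 (SE 0.13 and adjusted p 0.0469). Ablim3 (chromosome 18, 61799395 to 61911852), an actin-binding LIM protein, was between 37.8 and 65.5 CPM in rich and between 28.3 and 38.1 CPM in poor libraries, with a log2 fold change of 0.56 (SE 0.09 and adjusted p 0.0469). Cald1 (chromosome 6, 34598500 to 34775473), the actin and calmodulin binding protein caldesmon, was between 31.8 and 55.8 CPM in rich and between 29.7 and 36.0 CPM in poor libraries, with a log2 fold change of 0.46 (SE 0.08 and adjusted p 0.0443). For Ablim3 and Cald1 both rich libraries lay above both poor ones within every group, although the ranges overlap across groups.

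The remaining genes that passed were weakly expressed. Htra4 (chromosome 8, 25024929 to 25038962), an HtrA family serine peptidase, had medians of 3.60 and 1.35 CPM in rich and poor libraries and a log2 fold change of 1.33 (SE 0.19 and adjusted p 0.0226). Ankdd1a (chromosome 9, 65488470 to 65520193) had medians of 2.75 and 1.07 CPM and a log2 fold change of 1.31 (SE 0.22 and adjusted p 0.0469). Its value is uncertain, because Spg21 on the opposite strand holds 1200% of its counts and the use of strand in counting is not given in the sources used here. The predicted gene Gm11728 (chromosome 11, 117035078 to 117040193) had medians of 1.60 and 0.329 CPM and a log2 fold change of 2.13 (SE 0.32 and adjusted p 0.0264). B930018H19Rik, whose mean was under 1 CPM and which was named after its values were seen, had a log2 fold change of 1.57 (SE 0.21 and adjusted p 0.0226).

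Usp43 (chromosome 11, 67854523 to 67922153), a ubiquitin-specific peptidase, was the 1 gene that passed in the other direction. It was between 0.823 and 2.31 CPM in rich libraries (median 1.35) and between 2.58 and 4.93 in poor ones (median 3.24). All 8 rich libraries lay below all 8 poor ones. Its log2 fold change was -1.34 (SE 0.20 and adjusted p 0.0263). The gene 9130017K11Rik on the opposite strand holds 16.1% as many counts as Usp43.

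**Figure D2:**
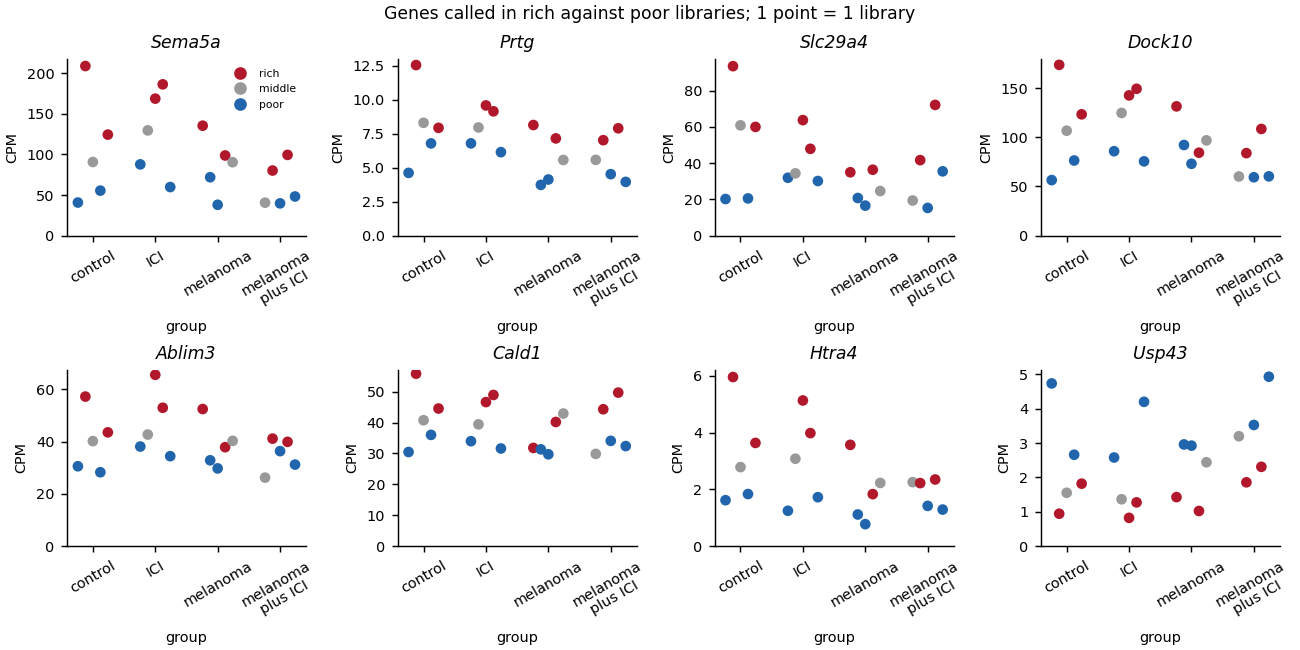
CPM (y axes, from 0) of 8 of the 11 genes that passed, by group (x axes), 1 point per library, coloured as rich, middle or poor. For Prtg every rich library lies at 7.03 CPM or above and every poor one at 6.79 or below, and for Usp43 every rich library lies at 2.31 or below and every poor one at 2.58 or above.

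Over all genes, both rich libraries lay above both poor ones within all 4 groups for 121 genes (0.689%) and below them for 86 (0.489%). A fit with the score as a number over all 20 libraries, which include the 16 above, called 500 genes with a positive slope (2.71% of 18424) and 331 with a negative slope (1.8%). It called 10 of the 11 genes again, and not Ankdd1a (adjusted p 0.0579).

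These 11 calls depend on single libraries and on the model. Leaving out control replicate 1, any of the ICI replicates 1, 3, 4 and 5 or melanoma plus ICI replicate 4 left 0 genes. Without control replicate 2 there was 1, without melanoma replicate 3 there were 3, without melanoma replicate 1 there were 5, and without control replicate 5 or melanoma plus ICI replicate 5 there were 7. With the mitochondrial share as a term, 0 genes passed. With the choroid plexus score described further on as a term, 0 genes passed as well. None passed with the replicate block, without any 1 of the 4 groups, or between the 8 highest and the 8 lowest of all 20 libraries. DESeq2 called 585 and limma voom with quality weights 330, each with all 11 among them. The log2 fold change of each of the 11 genes kept its sign in all 31 alternatives, and that of Sema5a ran from 1.11 to 1.44.

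A list of 20 further genes known from dentate granule cells was set beside the label. It was chosen with earlier results of these data known, so it is no independent check. All 20 were tested, 1 passed (Dock10), and the median log2 fold change was 0.67, against -0.0081 over all genes tested. At an unadjusted p under 0.05, 14 were higher and 0 lower, where 7.46% of all genes tested were higher and 7.83% lower. These shares are the background for the counts of every list below. By group the median of the list was 0.71 for control, 0.84 for ICI, 0.46 for melanoma and 0.50 for melanoma plus ICI. The summed level of the list was 949 to 1857 CPM in rich libraries (median 1349) and 883 to 1162 CPM in poor ones (median 966). In the direction of the label were 18 of the 20 values, but 1 gene passed. Of all 17571 genes tested 8423 had positive and 9148 negative values, the background for counts of signs here and below. The choroid plexus and dorsal hippocampus lists described further on had higher medians, 1.86 and 0.77.

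The member with the highest value was Lct, lactase, whose RNA is found in dorsal granule cells. In rich libraries it was between 10.8 and 128 CPM (median 56.0) and in poor ones between 1.55 and 32.01 (median 8.42), with both rich above both poor libraries in each group. Melanoma plus ICI was low in both classes, with rich libraries at 10.8 and 14.4 CPM, and the log2 fold change of 2.15 (SE 0.52) had an adjusted p of 0.114. Glis3, a zinc finger transcription factor, and Maml2, a coactivator of Notch signalling, had smaller p-values than Lct. Glis3 was between 12.2 and 27.8 CPM in rich and between 6.13 and 13.4 CPM in poor libraries, and Maml2 between 18.2 and 36.8 and between 11.6 and 18.5. Within every group both rich libraries lay above both poor ones for these genes, with log2 fold changes of 0.85 (SE 0.16 and adjusted p 0.0805) for Glis3 and 0.77 (SE 0.15 and adjusted p 0.0727) for Maml2.

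The cation channel gene Trpc6 had a log2 fold change of 0.72 (SE 0.16 and adjusted p 0.0944), and that of Stxbp6, which encodes a SNARE-binding protein, was 0.59 (SE 0.13 and adjusted p 0.0944). The transcription factor gene Rfx3 had 0.67 (SE 0.13 and adjusted p 0.0858). Plk5, Tdo2, Npnt, Fam163b and Ntf3 had log2 fold changes between 0.66 and 1.09 and adjusted p-values between 0.119 and 0.275. Over all 20 libraries the slope with the score was called for 9 of the 20 genes, with 0 negative, beside 2.71% of all genes called with a positive and 1.8% with a negative slope. It was 1.70 log2 units per unit of score for Lct (SE 0.14 and adjusted p 3.1e-06) and 0.50 for Maml2 (SE 0.04 and adjusted p 3.67e-06).

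C1ql3, Smad3, Synpr and Lrrtm4 had log2 fold changes between 0.18 and 0.32 and adjusted p-values between 0.284 and 0.506. The other granule cell genes of the list had values near 0. Calb1, the calcium buffer calbindin, which mature granule cells and CA1 pyramidal cells both contain, had medians of 95.4 CPM in rich and 103.6 CPM in poor libraries. Its log2 fold change was 0.02 (SE 0.22 and adjusted p 0.973), and by group it was -0.73 for control, -0.16 for ICI, 0.22 for melanoma and 0.77 for melanoma plus ICI. Pdyn, which encodes the opioid precursor prodynorphin of mossy fibres, had 0.03 (SE 0.39), Igfbp5 -0.01 (SE 0.15) and Akap7 -0.07 (SE 0.09), with adjusted p-values from 0.733 to 0.98. By group Pdyn was 0.29 for control, 1.30 for ICI, -0.68 for melanoma and -0.71 for melanoma plus ICI, so its value averages opposite signs. Its medians were 16.3 CPM in rich and 8.65 CPM in poor libraries, and the poor library melanoma replicate 3 was highest at 41.6 CPM. Igfbp5 also differed in sign between groups.

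**Figure D3:**
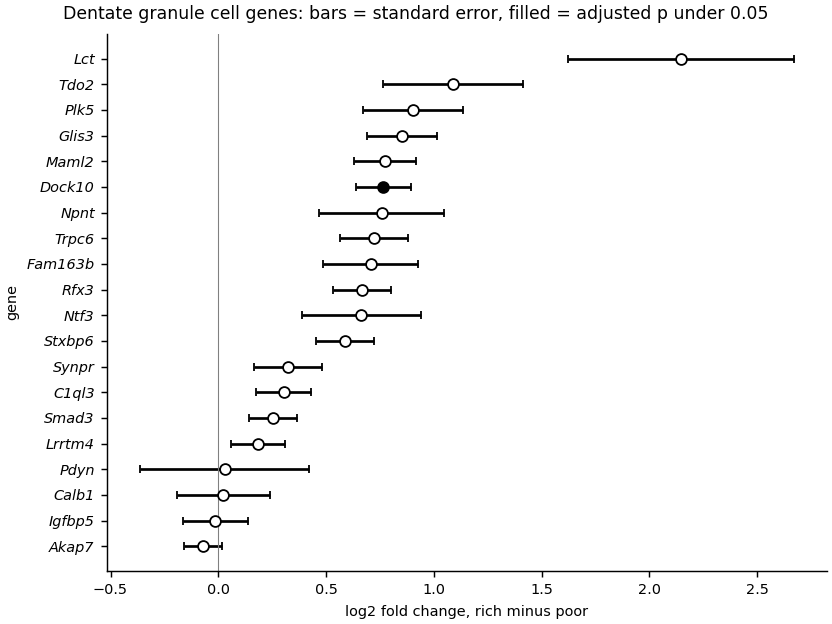
Log2 fold change of rich over poor libraries (x axis) for the 20 granule cell genes (y axis), with standard errors as bars. Dock10, filled, is the 1 gene at an adjusted p under 0.05, and Lct has the highest value, 2.15, with the widest bar.

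Genes of granule cell synapses and receptors were closer to 0. Of 12 tested, 0 passed, 2 were higher and 0 lower at an unadjusted p under 0.05 (7.46% and 7.83% of all genes), and the median log2 fold change was 0.13. Nptx1, the neuronal pentraxin that gathers AMPA receptors, had medians of 786 CPM in rich and 412 CPM in poor libraries and a log2 fold change of 0.66 (SE 0.16 and adjusted p 0.114). Grin2a, an NMDA receptor subunit, had 0.53 (SE 0.16 and adjusted p 0.16), and Gabrd, the delta subunit of extrasynaptic GABA receptors, had -0.26 (SE 0.30 and adjusted p 0.713). Over all 20 libraries the slope with the score was called positive for 3 of the 12 genes and negative for 0. These were Nptx1 (adjusted p 0.00211), Grin2a (0.00272) and Bdnf (0.0476), beside 2.71% of all genes with a positive slope.

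Adult neurogenesis genes, which follow precursor cells and young granule cells, did not move in 1 direction. Of 13 tested, 0 passed, and 4 were higher and 2 lower at an unadjusted p under 0.05 (7.46% and 7.83% of all genes), with a median of 0.17. Igfbpl1, found in immature neurons, was between 2.07 and 10.9 CPM in rich (median 4.93) and between 0.559 and 4.31 CPM in poor libraries (median 1.81), with a log2 fold change of 1.45 (SE 0.47 and adjusted p 0.183). Neurod1, a factor of granule cell differentiation, had 0.39 (SE 0.17 and adjusted p 0.281). Dcx, the microtubule protein of migrating young neurons, was at medians of 17.7 CPM in rich and 25.8 CPM in poor libraries, a log2 fold change of -0.43 (SE 0.16 and adjusted p 0.233). The markers of immature cells therefore had values on both sides of 0.

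Along the hippocampal circuit, 0 genes of fields CA1, CA2, CA3 or the subiculum passed between rich and poor libraries. The slope with the score over all 20 libraries was called positive for 2 of 8 CA3 genes and 1 of 5 CA2 genes. These were Iyd (adjusted p 0.0033), Cpne4 (0.0159) and Rgs14 (0.00555), beside 2.71% of all genes. It was called for 0 genes of the CA1 and subiculum lists. The CA2 list had a median of 0.44, with 3 of 5 genes higher at an unadjusted p under 0.05, among them Cacng5 at 1.08 (SE 0.30 and adjusted p 0.133). Pcp4 of the same list had -0.24 (SE 0.21 and adjusted p 0.604). The CA3 list had a median of 0.33, with 2 of 8 higher. The CA1 list had a median of 0.09 over 9 genes, of which 1 was higher and 2 lower, where 7.46% of all genes were higher and 7.83% lower. Among the lower ones was Mpped1 at -0.45 (SE 0.10 and adjusted p 0.105). In the subiculum list, which held 4 genes apart from Teddm3, the median was -0.26 with 0 genes at an unadjusted p under 0.05. By group it was -0.89 for control, -0.76 for ICI, -0.25 for melanoma and 0.92 for melanoma plus ICI, where the sign was opposite. Of hilar mossy cell genes, 0 of 4 reached that level, with a median of 0.11.

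Lists for the long axis of the hippocampus differed in sign. The dorsal list, 4 genes that include Lct, had a median of 0.77, and the ventral list of 6 genes had a median of -0.73 with 0 genes at an unadjusted p under 0.05. By group the ventral median was -1.91 for control, -1.95 for ICI, -0.46 for melanoma and 1.22 for melanoma plus ICI, so its sign was opposite in the last group. Its summed level was 43.3 to 321 CPM in rich and 51.8 to 241 CPM in poor libraries. Trhr, a receptor of ventral hippocampus, shows this: it was 0.386 and 0.950 CPM in the rich and 15.0 and 4.59 CPM in the poor control libraries, and 22.1 and 8.61 CPM in the rich and 0.613 and 8.44 CPM in the poor melanoma plus ICI libraries. The part of the dissected region in the differences between the classes was not tested.

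Genes of neighbouring tissues also had values away from 0. The 9 choroid plexus genes all had positive values, from 1.66 to 3.28 with a median of 1.86, and 7 of 9 were higher at an unadjusted p under 0.05 (7.46% of all genes), with 0 passing adjustment. Their summed level was 357 to 6569 CPM in rich libraries (median 2778) and 22.4 to 3249 CPM in poor ones (median 75.3). Ttr, transthyretin, a main secreted protein of this tissue, was between 270 and 5925 CPM in rich and between 2.15 and 2892 CPM in poor libraries, and its log2 fold change was 3.28 (SE 1.69 and adjusted p 0.374). By group the median of the list was 4.88 for control, -0.07 for ICI, 3.05 for melanoma and 0.54 for melanoma plus ICI, so the values were highest in control and melanoma. With the score of this list as a term the log2 fold change of Sema5a was 1.28 and that of Dock10 0.74, with adjusted p-values of 0.329 and 0.424.

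The neocortex list had a median of -0.59 over 10 genes, of which 5 were lower at an unadjusted p under 0.05, beside 7.83% of all genes. Its summed level was 235 to 398 CPM in rich and 312 to 556 CPM in poor libraries. Cux2, a factor of upper cortical layers, had medians of 37.98 CPM in rich and 70.0 CPM in poor libraries and a log2 fold change of -0.87 (SE 0.21 and adjusted p 0.114). The striatum list had a median of -0.72 over 11 genes, of which 3 were lower. Its summed level was 240 to 753 CPM in rich (median 264) and 225 to 1664 CPM in poor libraries (median 249). The median of the summed level was thus not lower in rich libraries. By group the striatum list had medians of -0.26 for control, -0.16 for ICI, -1.22 for melanoma and -1.02 for melanoma plus ICI. Its score was highest in the poor library melanoma replicate 3, at a mean log2 CPM of 6.37. The middle library melanoma replicate 5 followed at 5.52, then the poor library melanoma plus ICI replicate 3 at 5.25 and the rich library melanoma replicate 1 at 5.05. With the choroid plexus, striatum and neocortex scores as terms 0 genes passed, and the log2 fold change of Sema5a was 1.11 and that of Slc29a4 0.73.

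Interneuron genes had a median of -0.38 over 9 genes, of which 4 were lower at an unadjusted p under 0.05, beside 7.83% of all genes. Vip, a peptide of interneurons, had medians of 8.83 CPM in rich and 16.8 CPM in poor libraries and a log2 fold change of -0.87 (SE 0.21 and adjusted p 0.116). The 11 immediate early genes, which neurons switch on with activity, all had negative values, with a median of -0.40 and 3 of 11 lower at an unadjusted p under 0.05. Fos was between 8.16 and 48.5 CPM in rich and between 13.3 and 49.7 CPM in poor libraries, so the classes overlapped over nearly the whole range. The median of this list was 0.47 for control, -0.40 for ICI, -0.61 for melanoma and -1.42 for melanoma plus ICI.

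Lists for glia and vessels had medians near 0 over the groups together. The medians were 0.06 for oligodendrocytes, 0.02 for astrocytes, -0.03 for microglia and -0.12 for endothelium. By group the oligodendrocyte median was 0.48 for control, 0.61 for ICI, -0.35 for melanoma and -0.45 for melanoma plus ICI, so the value near 0 averages opposite signs. Of the 10 astrocyte genes 1 was higher and 2 lower at an unadjusted p under 0.05, and 0 passed. The lower ones were the growth factor receptor gene Fgfr3 at -0.22 and the gap junction gene Gjb6 at -0.25. The higher one, Gfap, the intermediate filament of astrocytes, was between 279 and 437 CPM in rich and between 188 and 370 CPM in poor libraries, a log2 fold change of 0.31 (SE 0.12 and adjusted p 0.264). Its slope with the score over all 20 libraries passed, at 0.23 log2 units per unit of score (SE 0.05 and adjusted p 0.0128). The lists for oligodendrocyte precursors, thalamus, meninges and red blood cells had medians of -0.01, -0.16, -0.01 and -0.12. Of the 7 thalamus genes 1 was higher and 1 lower at an unadjusted p under 0.05, and 0 passed. Prkcd had the highest value of that list, 1.45. Its log2 fold change was 0.80 for control, 1.15 for ICI, 1.66 for melanoma and 2.18 for melanoma plus ICI. By group the meninges median was -0.35 for control, -0.43 for ICI, -0.26 for melanoma and 0.93 for melanoma plus ICI. That of red blood cells was -1.02, 0.46, 0.53 and -0.59 in the same order, so both lists had opposite signs between groups.

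**Figure D4:**
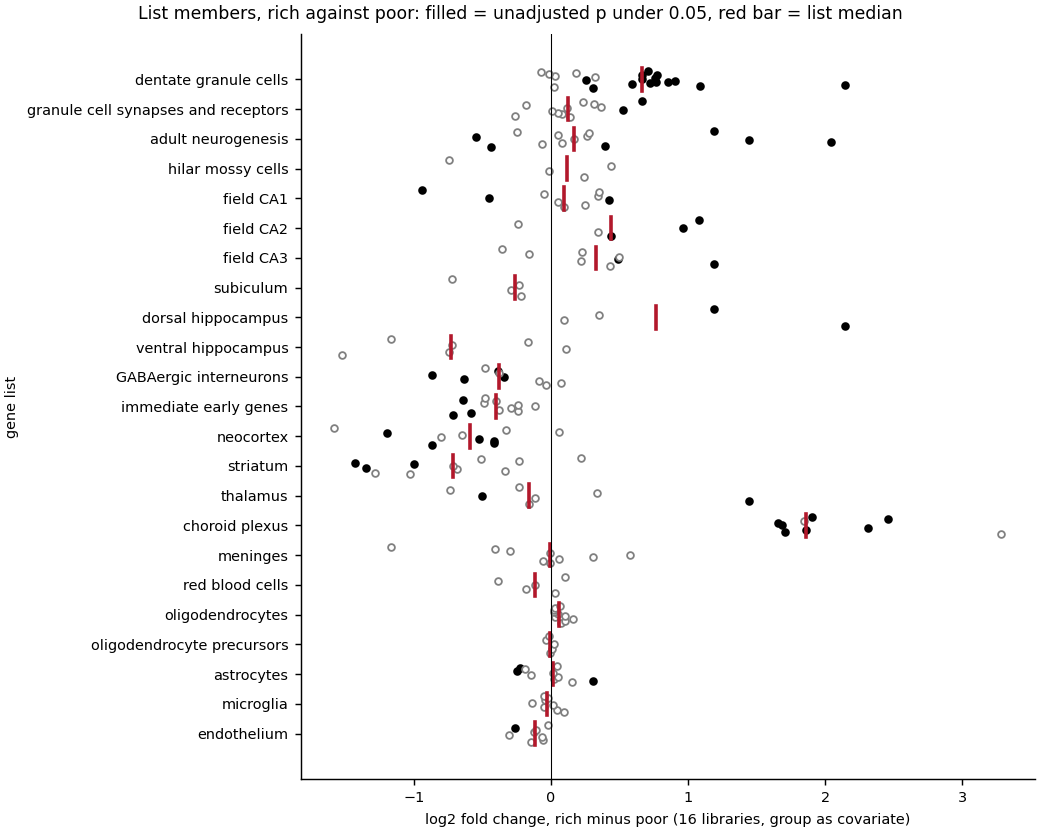
Log2 fold change of rich over poor libraries (x axis) for the members of 23 gene lists (y axis), filled at an unadjusted p under 0.05, with the list median as a red bar. The granule cell list has its median at 0.67 and the choroid plexus list at 1.86, while the neocortex and striatum lists have theirs at -0.59 and -0.72.

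**Figure D5:**
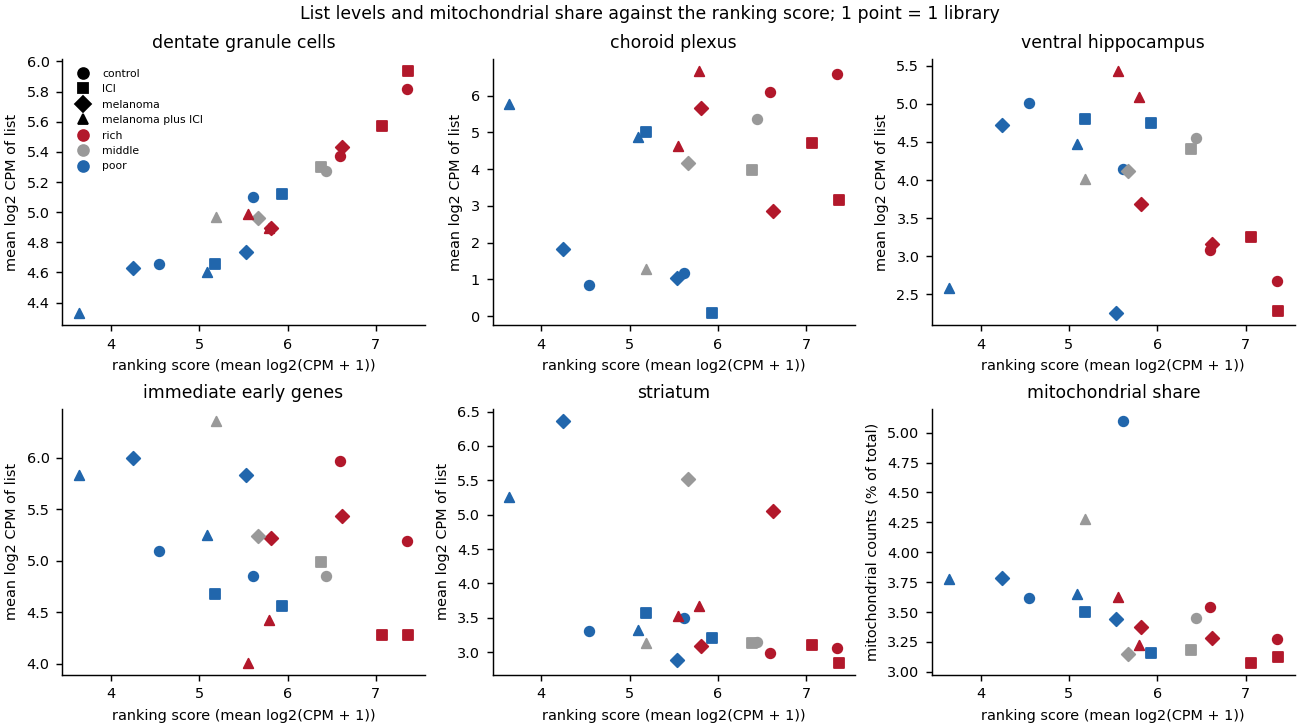
Mean log2 CPM of 5 gene lists and the mitochondrial share of counts in percent (y axes) against the ranking score (x axes), 1 point per library, shaped by group and coloured by class. The granule cell list follows the score over all 20 libraries, while choroid plexus levels are spread from 0.09 to 5.78 within the poor class.

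Whether the rich and poor difference depended on treatment was asked with interaction contrasts over the same 16 libraries. With against without inhibitors 0 of 17571 genes passed (0% of genes tested), with 354 higher and 380 lower at an unadjusted p under 0.05 and 0 genes by DESeq2. In each of these contrasts about 879 genes, higher and lower together, would reach that unadjusted level by chance. The gene with the smallest p-value was the predicted gene Gm17971 (log2 difference -2.05, SE 0.42 and adjusted p 0.814). With against without a tumour 0 genes passed as well (0%), with 1037 higher and 1001 lower at an unadjusted p under 0.05, and DESeq2 called 273. The gene with the smallest p-value was Oprl1, the nociceptin receptor (log2 difference 0.91, SE 0.14 and adjusted p 0.204). These contrasts depended on single libraries. Without control replicate 1, edgeR called 738 genes by inhibitor status and 540 by tumour status, with control represented in the poor class by 1 library that is assumed to vary like the others. Without melanoma plus ICI replicate 5 there were 165 by tumour status, without melanoma replicate 3 there were 4 and without control replicate 2 there was 1.

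The score was then used as a covariate in the treatment contrasts over all 20 libraries. The averaged effect of ICI, the averaged effect of melanoma and their interaction each gave 0 called genes of 18424 (0%). At an unadjusted p under 0.05 the effect of ICI had 212 higher and 289 lower genes with the score and 177 and 226 without it. That of melanoma had 178 higher and 93 lower genes with the score and 470 and 326 without it. The interaction had 875 and 575 with the score and 1103 and 789 without it. About 921 genes, higher and lower together, would reach that level by chance. ICI and melanoma stayed below this number in both fits, and the interaction lay above it in both. The genes with the smallest p-value were Nyap2 for ICI (log2 fold change 0.33, SE 0.06 and adjusted p 0.64), Lcn2 for melanoma (3.51, SE 0.89 and adjusted p 1.00) and Lsr for the interaction (1.03, SE 0.17 and adjusted p 0.158). DESeq2 with the score called 1, 0 and 33 genes in the same order. The interaction gave 16 genes without melanoma plus ICI replicate 3, 2 without ICI replicate 4, and 1 each without control replicate 4 and melanoma replicate 4.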

How the data were processed

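The deposited files hold raw counts per gene, per the labels, in 1 table for each of 20 libraries, with 49671 genes, coordinates, strand and length. The submitters' processing notes name STAR 2.5.2b and DESeq2 1.16.1 without a role. The counting program, strand setting and genome build are not given in the sources used here. Of the identifiers, 49326 occur in GENCODE M21 (GRCm38), 45128 with identical start and end, and symbols come from it. Totals ran from 21990624 to 25735149, and intervals of such counts cover counting error only.

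Classes were formed from the scores computed from these counts and column totals. Genes were kept by filterByExpr (minimum count 10, minimum total 15), scaled by TMM (factors 0.956 to 1.06) and tested in edgeR 4.0.16 under R 4.3.3 by a robust quasi-likelihood fit with group and class as terms. There were 11 residual degrees of freedom, and the prior ones had a median of 3.69. The 3 ranking genes left the test and p-values were adjusted by Benjamini-Hochberg over the others. Interactions used 1 mean per group and class. Treatment contrasts and slopes used all 20 libraries with the score. Scores of lists are means of log2 CPM with a prior count of 2. The code was tested on simulated data.

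The members and gene lists were chosen with earlier results of these data known. The rule for naming took list members and up to 12 called genes in each direction that had a symbol and averaged at least 1 CPM, and for other contrasts the gene with the smallest p-value. Because libraries were ordered by measured values, p-values describe covariation with the ranking genes. Replicates are separate mice, per the labels, and no pair within a group agreed within sampling noise, with chi-square statistics of 10.5 to 120 per gene over 40 pairs. Alternatives were DESeq2 1.42.0, limma 3.58.1 voom, size factors, no filter, other covariates, other rankings, and leaving out libraries and groups. The terms for mitochondrial share and for choroid plexus alone, and the share without control replicate 4, were added after the data were seen. The values of some single genes of the lists are not reported here.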

Additional observations from a re-analysis of the deposited data

Results flagged for a closer look

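Within each group of 5 libraries, each measure was checked for a highest or lowest library that stood apart by Dixon's criterion. It marked 10 of 164 checks, and chance marks about 1 in 20. Among the ranking genes, Prox1 stood at 131 TMM-scaled CPM in melanoma replicate 1, a rich library, against 42.1 to 65.4 in the other melanoma libraries. ICI replicate 3, also rich, had 24674 genes detected against 25540 to 25746 in the others of its group.

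The mitochondrial share was 5.1% in control replicate 4 against 3.27% to 3.62% in the other control libraries, and 3.5% in ICI replicate 5 against 3.08% to 3.18%. Both are poor libraries. Control replicate 4 also had the lowest score for oligodendrocyte precursors in its group, a mean log2 CPM of 5.38.

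Melanoma plus ICI replicate 3, the poorest library of the series, stood apart in 4 list scores. Its mean log2 CPM was 3.58 for field CA3 against 4.94 to 5.23 in the others of its group, 1.44 for dorsal hippocampus against 3.41 to 3.58, 5.25 for striatum against 3.14 to 3.67, and 5.3 for endothelium against 4.76 to 4.90. The dorsal hippocampus score was also low in melanoma replicate 3, at 2.36 against 4.01 to 4.67. Without melanoma plus ICI replicate 3, 13 genes passed between rich and poor libraries, 9 of them among the 11.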

How the results depend on the processing

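The number of calls between rich and poor libraries was 11 as reported and with size factors, 585 with DESeq2 and 330 with limma voom. It was 85 without a filter (10 of the 11 among them), 5 when ranked by Prox1 alone, and 0 for the 8 highest and 8 lowest of all 20. It was 0 with the replicate block, with the 3 tissue scores, with choroid plexus alone, with the mitochondrial share and without each of the 4 groups. Leaving out each library gave 0 to 13. The fit with the score as a number called 831 slopes, but it also included the 4 middle libraries and tested 18424 genes. Each of the 11 genes kept its sign in 31 alternatives and passed in 8 to 16 of them.

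Leaving out each library gave 0 to 738 genes for the interaction with inhibitor status, 0 to 540 for that with tumour status, where DESeq2 gave 273, and 0 to 16 for the interaction of treatments with the score, where DESeq2 gave 33. For the averaged effect of ICI with the score DESeq2 gave 1, and leaving out libraries gave 0 for both averaged effects. The replicate block left these 3 contrasts at 0. Same-numbered libraries of different groups correlated between -0.371 and 0.563 in their deviations from the group mean, with a mean of 0.034 against -0.00706 for pairs with different numbers, and 8 of 20 correlated best with their own number. The correlation was not over 0.1 in every pair and no label ties the numbers to a shared litter or day, so the block was not used in the reported fit.

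The score difference ran from -1.13 to -0.758 for melanoma and from -0.32 to 0.0526 for ICI without single libraries. Genes detected differed by 118 without the ICI group, against -24.9 in all. Leaving out control replicate 4 together with melanoma plus ICI replicate 1 equals leaving out the former, since the latter is in neither class. At this depth, genes under 1 CPM rest on few counts per library.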

Other observations

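Genes outside the lists also followed the score over all 20 libraries (edgeR's quasi-likelihood test, group as a term). They were picked after their values were seen, from the 10 smallest p-values, and the fit includes the 16 libraries that form the classes. The smallest p-value of all was that of Vwa3b, with a slope of 0.96 log2 units per unit of score (SE 0.07, adjusted p 4.6e-07). Orai2, a regulator of store-operated calcium entry, had 0.61 (SE 0.06), Il20rb, a cytokine receptor subunit, 0.79 (SE 0.08), and Iqgap2, a scaffold protein of the actin cytoskeleton, 0.68 (SE 0.07). Sphkap, an anchoring protein for protein kinase A, had 0.40 (SE 0.04). Lhfpl2 and Ccdc85a had 0.33 (SE 0.03) and 0.32 (SE 0.03). Between rich and poor libraries alone none of these 7 passed.

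The genes with a negative slope named here were chosen for known roles and not by rank. Meis2, a homeobox factor of striatal and other neurons, had -0.41 (SE 0.06, adjusted p 0.000441). Arpp21, a phosphoprotein abundant in striatal and cortical neurons, had -0.49 (SE 0.08, adjusted p 0.00165), Lgr5, a receptor of Wnt signalling, had -0.55 (SE 0.09, adjusted p 0.00119), and Efna5, an axon guidance ligand, had -0.61 (SE 0.11, adjusted p 0.00276). In the same fit 3 of 11 striatum genes and 2 of 10 neocortex genes were called lower and 0 higher, beside 331 genes called lower (1.8%) of all 18424. The part of neighbouring tissue in these slopes was not tested.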
